A study of Homo sapiens with 6 samples.

Results

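The MYC, MAX and MXD network is a set of transcription factors, most of which compete for the DNA-binding partner MAX. Described here were 10 of its genes: MYC, MYCN, MAX, MXD1, MXD3, MXD4, MXI1, MNT, MLXIP and MGA. The 10 were chosen by name, with earlier results of these data known. Each had exactly 1 probe set paired with its symbol alone, and they were 10 of 18417 named genes measured. Expression was measured in HCT 116 cells, an established human colorectal carcinoma line, grown in DMEM with fetal bovine serum. The cells were harvested 48 h after transient transfection with double-stranded RNA oligonucleotides directed either against GFP, which serves as the control (siControl), or against Che-1 (siChe-1), the product of the AATF gene. Each label, control and siChe-1, was carried by 3 arrays, so all 6 came from transfected cells of a single line. By its title the study set out to profile Che-1 depletion. The labels do not tell whether replicates were separate cultures, and the p-values therefore cover only the spread among these 6 arrays, which may be technical.

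The proteins of this network share a basic helix-loop-helix leucine zipper. MYC and MYCN pair with MAX, bind the E-box CACGTG and recruit activators such as histone acetyltransferases. MXD1, MXD3, MXD4, MXI1 and MNT pair with the same MAX, bind the same sites and recruit the SIN3 and histone deacetylase corepressor, while MGA carries MAX into a Polycomb complex. MLXIP, also called MondoA, uses the related partner MLX and responds to glucose-derived metabolites. In colorectal carcinoma cells with active beta-catenin, such as HCT 116, MYC is a known target of beta-catenin and TCF factors.

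The level of AATF, the gene targeted by the siRNA, went against the labels. It read 7.55, 7.75 and 7.55 in the arrays labelled control and 8.53, 8.81 and 8.87 in those labelled siChe-1 (log2 RMA intensity). Their means differed by 1.12 ± 0.13 (log2, SE), with limma adjusted p = 0.00122. AATF was therefore 2.17-fold higher in the group labelled as depleted of it. Groups keep the names of their labels below, "higher" and "lower" describe siChe-1 arrays against control arrays, and every direction would turn if the group labels were exchanged. The epithelial keratin KRT8 was the brightest of 12 colon epithelial markers, which read up to 12.6, whereas the intestinal markers CEACAM5, VIL1, KRT20 and LGALS4 were dim (LGALS4 at 4.72 and below). Of 7 leukocyte markers, TYROBP reached 6.20 and the others stayed at or below 4.12. Of 8 fibroblast markers, COL1A1 reached 7.48 and the others stayed at or below 4.42. Among the members, only MYC and MLXIP read above this highest COL1A1 value on every array, and all readings of the others lay below it. Over all genes, siChe-1 replicate 1 lay furthest from its group mean, with a root mean square deviation of 0.245 on the log2 scale against 0.132 to 0.170 for the other 5 arrays.

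Stretches of promoter sequence show where E-boxes do and do not lie in this network, as background to the levels that follow. Windows of 300 bases, from 250 before to 50 after an annotated start, were taken from RefSeq (GRCh38.p14), and 9 of the 10 members had at least 1 (all but MYC), 14 windows in all. The E-box CACGTG, which reads the same on both strands, lay in 2 of the 9 members, MXD4 and MNT, against 8.77% of the 27305 genes with a window. The MLX promoter also held it. MXD1, which showed the largest difference among the members, had no CACGTG in its window. The stretch shown for MXD1 is the 250 bases before its start at chr2:69914859-69915108 on the plus strand, with GC boxes (GGGCGG) and CCAAT boxes in capitals. MXD4 is shown at chr4:2262300-2262359 on the minus strand, MNT at chr17:2401221-2401280 on the minus strand and MLX at chr17:42567023-42567082 on the plus strand, each with its E-box in capitals.
MXD1: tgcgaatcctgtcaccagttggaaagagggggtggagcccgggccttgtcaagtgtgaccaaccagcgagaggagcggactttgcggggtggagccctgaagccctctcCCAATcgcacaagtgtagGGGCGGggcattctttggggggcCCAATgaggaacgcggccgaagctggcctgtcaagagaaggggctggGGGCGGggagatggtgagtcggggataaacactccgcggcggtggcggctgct
MXD4: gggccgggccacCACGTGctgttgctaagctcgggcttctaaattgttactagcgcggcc
MNT: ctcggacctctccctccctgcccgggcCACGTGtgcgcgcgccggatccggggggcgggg
MLX: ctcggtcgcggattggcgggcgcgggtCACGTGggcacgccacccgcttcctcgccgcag
On either strand GGGCGG was found in 48.3% and CCAAT in 39.7% of all genes with a window, so both are common, and GGGCGG lay in the windows of all 9 members. A GGGCGG and a CCAAT match in MXD1 began 123 and 141 bases before its start, and a further pair began 53 and 100 bases before it. Binding was not measured in this study, and a match describes letters only.

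Among the members, 2 of 10 passed the test (limma, adjusted p under 0.05 over all 18417 genes), both lower, and 8 did not pass. Over all genes 3.72% passed, 1.19% higher and 2.52% lower. The 2 that fell were MXD1, a repressor of the network, and MYC, its main activator. The median difference of the 10 was 0.03 on the log2 scale, beside 0.01 over all genes, and 5 members lay above 0 and 5 below. The groups did not overlap for 6 of the 10, 3 higher (MXD3, MXD4, MXI1) and 3 lower (MYC, MAX, MXD1), against 24.0% of all genes.

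**Figure D1:**
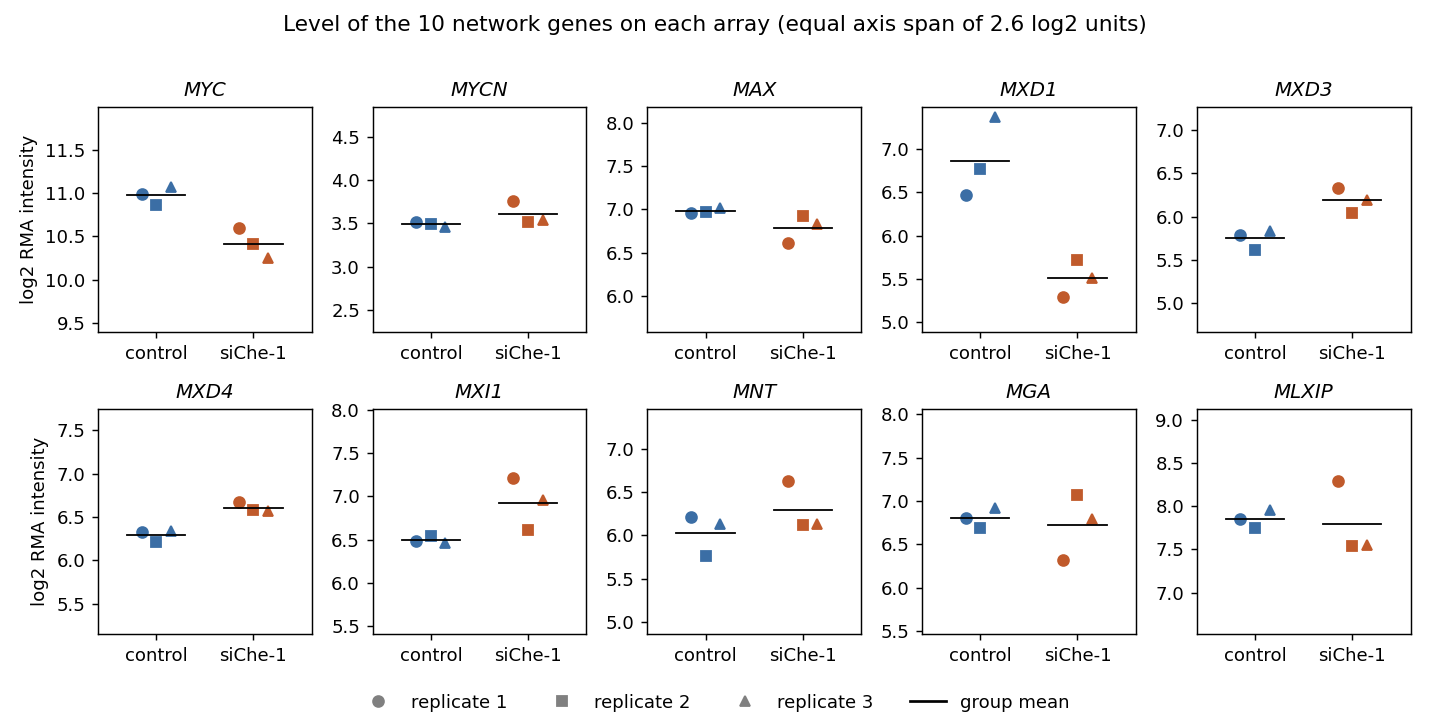
Level of each of the 10 network genes on each of the 6 arrays, in log2 RMA intensity, with all panels spanning the same number of log2 units; symbols mark replicates and lines mark group means (n = 3 each). MXD1 and MYC sit lower in all 3 arrays labelled siChe-1, MXD3, MXD4 and MXI1 sit higher in all 3, and siChe-1 replicate 1 (circle) is the highest or lowest of its group in all 10 panels.

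MYC is the broadly acting activator of the network, driving genes of growth, ribosome production and nucleotide synthesis. It read 10.99, 10.87 and 11.06 in the arrays labelled control and 10.59, 10.41 and 10.25 in those labelled siChe-1 (log2 RMA intensity). All 3 siChe-1 values lay below all 3 control values, with 0.27 on the log2 scale between the nearest arrays. The means were 10.97 ± 0.10 and 10.42 ± 0.17 (SD, n = 3 each). MYC fell by 0.56 ± 0.13 (log2 difference, SE), to 68.0% of the control level, 95% confidence interval -0.85 to -0.27, at a limma adjusted p = 0.0464. This lies just inside the threshold. Only siChe-1 replicate 1 could be left out with the call kept (-0.65, adjusted p = 0.00923). Without control replicate 1, 2 or 3 the adjusted p was 0.173, 0.114 and 0.170, and without siChe-1 replicate 2 or 3 it was 0.102 and 0.164, while the difference stayed between -0.65 and -0.47. By an exact permutation test (two-sided) MYC had p = 0.1, which is the smallest value possible with 3 arrays against 3. A fall of at least this size was measured in 600 genes, or 3.26% of all.

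MYCN, the neuronal and developmental relative of MYC, read 3.52, 3.49 and 3.46 in the arrays labelled control and 3.76, 3.52 and 3.54 in those labelled siChe-1 (log2 RMA intensity). These values are close to the median of the leukocyte markers, 3.54, so MYCN is not shown to be above background in either group. The difference was 0.12 ± 0.12 (log2, SE; limma adjusted p = 0.680), and 0.039 without siChe-1 replicate 1 (adjusted p = 0.871).

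MAX is the partner that MYC, the MXD proteins, MNT and MGA all need for DNA binding. It read 6.96, 6.97 and 7.02 in the arrays labelled control and 6.61, 6.93 and 6.83 in those labelled siChe-1 (log2 RMA intensity). The groups did not overlap, but only 0.03 on the log2 scale separated the nearest arrays, and siChe-1 replicate 1 was the lowest. The difference was -0.19 ± 0.12 (SE, 95% confidence interval -0.47 to 0.08, limma adjusted p = 0.477), and -0.10 without siChe-1 replicate 1 (adjusted p = 0.628). The interval does not include a fall of the size measured for MYC, but it overlaps the interval of MYC (-0.85 to -0.27). Whether MAX fell less than MYC was not tested.

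MXD1, formerly MAD1, encodes the founding MXD repressor, which is known to rise as cells stop dividing and differentiate. It read 6.47, 6.77 and 7.37 in the arrays labelled control and 5.30, 5.71 and 5.52 in those labelled siChe-1 (log2 RMA intensity). Every siChe-1 value lay at least 0.75 below every control value. The control arrays were spread more widely than for any other member, at 6.87 ± 0.46 against 5.51 ± 0.21 (SD, n = 3 each). MXD1 fell by 1.36 ± 0.21 on the log2 scale (SE, 95% confidence interval -1.83 to -0.89, limma adjusted p = 0.00637), to 39.0% of the control level. This was the fall at rank 92 of 465 lower genes that passed, and 0.500% of all genes were lower by at least as much. It kept its call when any 1 array was left out, with differences from -1.56 to -1.11 and adjusted p from 0.00751 to 0.0383. The siChe-1 readings lie below the highest leukocyte marker reading, 6.20 for TYROBP, and above those of the other leukocyte markers, at or below 4.12. With no detection calls, the level there is not shown to be above background and the size of the fall is uncertain.

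None of the other 3 MXD genes passed, and their measured differences lay above 0. MXD3, an MXD repressor expressed in cycling cells, read 5.79, 5.62 and 5.84 in the arrays labelled control and 6.33, 6.04 and 6.19 in those labelled siChe-1 (log2 RMA intensity). All 3 siChe-1 arrays were above all 3 control arrays, and the difference was 0.44 ± 0.13 (SE, 95% confidence interval 0.16 to 0.72), but it did not pass (limma adjusted p = 0.0933). All its readings but that of siChe-1 replicate 1 also lie below the highest leukocyte marker reading. MXD4, a repressor of the same family, read 6.33, 6.22 and 6.34 against 6.67, 6.58 and 6.57. Its SDs were 0.07 and 0.06 (n = 3 each), the groups did not overlap, and the difference of 0.32 ± 0.11 (SE) did not pass (limma adjusted p = 0.169). MXI1, also known as MAD2, read 6.48, 6.54 and 6.46 against 7.22, 6.61 and 6.96. Its groups did not overlap, but siChe-1 replicate 2 lay only 0.07 above the highest control array. The difference of 0.43 ± 0.16 (SE) did not pass (limma adjusted p = 0.172). For each of MXD3, MXD4 and MXI1 the measured difference stayed above 0 in all 14 other settings tried. Without siChe-1 replicate 1 the differences were 0.37, 0.28 and 0.29 for MXD3, MXD4 and MXI1 (adjusted p = 0.0865, 0.143 and 0.206). At an unadjusted p under 0.05 all 3 were included, as were 17.7% of all genes.

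**Figure D2:**
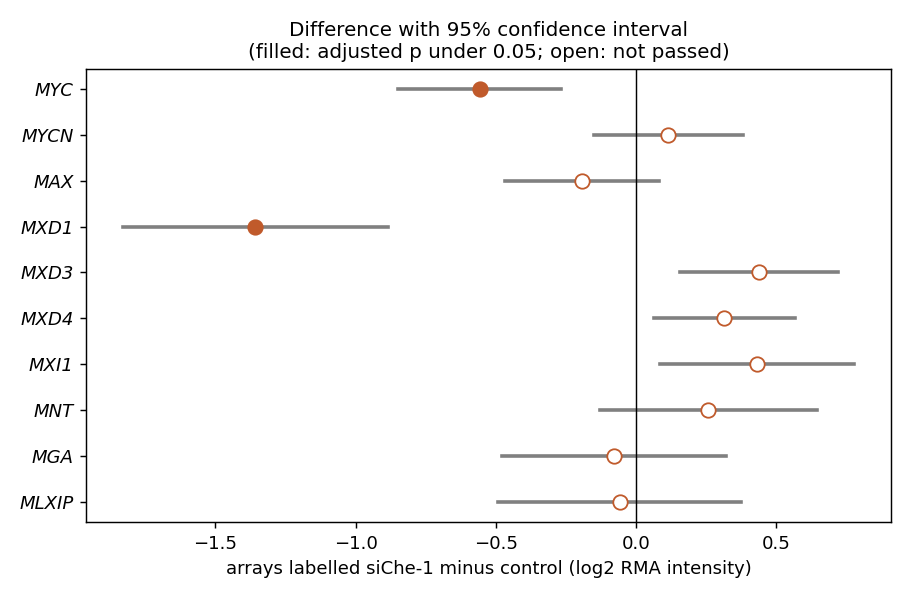
Difference of each network gene, arrays labelled siChe-1 minus control, in log2 RMA intensity; points are differences, bars are 95% confidence intervals from limma and filled points passed at an adjusted p under 0.05. MXD1 (-1.36) and MYC (-0.56) lie left of 0, and the intervals of MXD3, MXD4 and MXI1 lie right of 0 without passing after adjustment.

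MNT, a MAX partner that opposes MYC in most proliferating cells, read 6.21, 5.76 and 6.13 in the arrays labelled control and 6.63, 6.12 and 6.13 in those labelled siChe-1 (log2 RMA intensity). The groups overlapped, and the difference was 0.26 ± 0.17 (SE, limma adjusted p = 0.495), and 0.091 without siChe-1 replicate 1 (adjusted p = 0.764). Of its 6 readings 4 lie below 6.20, the highest leukocyte marker reading. MGA, the large scaffold that brings MAX into the Polycomb complex PRC1.6, read 6.81, 6.69 and 6.92 against 6.32, 7.06 and 6.80. The siChe-1 arrays held both the lowest and the highest of the 6 values, and the difference of -0.08 ± 0.18 (SE, limma adjusted p = 0.873) became 0.13 without siChe-1 replicate 1. MLXIP, the glucose-responsive MLX partner, read 7.85, 7.75 and 7.96 against 8.29, 7.54 and 7.55. Here siChe-1 replicate 1 was above and the other 2 siChe-1 arrays below every control array, and the difference was -0.06 ± 0.19 (SE, limma adjusted p = 0.916). Without siChe-1 replicate 1 it was -0.31 (adjusted p = 0.128).

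The array that lay furthest from its group mean over all genes was siChe-1 replicate 1. There all 10 members were the highest or lowest of their group of 3, 7 highest and 3 lowest, and 82.5% of all genes were. The count was 9 of 10 in control replicate 3 (69.4% of all genes), 8 in siChe-1 replicate 2 (63.7%), 7 in control replicate 2 (67.4%), 4 in control replicate 1 (63.5%) and 2 in siChe-1 replicate 3 (54.1%). The part of siChe-1 replicate 1 in the results is seen in the differences without it, given above for each member but MXD1, which was -1.25 (adjusted p = 0.00751).

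The genes whose profile over the 6 arrays was most like that of MYC were BAK1, RIC8A, ZBTB2, GALNT14 and CD83, by the root mean square distance between profiles centred on their own mean, among genes at least as bright as the median gene. BAK1, which encodes a pore-forming protein of the mitochondrial death pathway, was nearest at 0.044 on the log2 scale. It read 8.32, 8.26 and 8.32 in the arrays labelled control and 7.94, 7.77 and 7.61 in those labelled siChe-1. The distances of the other 4 were 0.054 for RIC8A, 0.055 for ZBTB2, 0.057 for GALNT14 and 0.059 for CD83, and their log2 differences were -0.50, -0.53, -0.55 and -0.48. Since the profile of MYC is mostly a step between the groups, other genes with a step of that size are near it by construction.

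The wider pathway was described by 9 lists of other genes. Of 120 measured genes, each counted once, 7 passed (5.83%, against 3.72% of all genes), 2 higher and 5 lower, and their median difference was -0.06. When 1 array was left out the number ranged from 4, without control replicate 1, 2 or 3, to 15 without siChe-1 replicate 1. The number over all genes moved alike in those settings, to 273, 290 and 272 (1.48%, 1.57% and 1.48%) and to 1565 (8.50%). Among 10 regulators of MYC transcription 1 passed (10%, against 3.72% of all genes). That gene was TCF7L2, the main DNA-binding partner of beta-catenin in the colon. It read 9.07, 8.78 and 9.06 in the arrays labelled control and 9.92, 9.61 and 9.52 in those labelled siChe-1, with no overlap. It was higher by 0.71 ± 0.15 (log2, SE, limma adjusted p = 0.0256), and the call was lost when any single control array or siChe-1 replicate 2 was left out (adjusted p up to 0.129 over all settings). Beta-catenin itself, CTNNB1, had a difference of -0.17 (adjusted p = 0.642) and the feedback target AXIN2 also -0.17 (adjusted p = 0.514), both named after their values were seen.

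The MYC relatives and partners outside the 10 were MYCL, MLX and MLXIPL, and limma called none of them. Of these, 1 had an unadjusted p under 0.05, as did 17.7% of all genes. MLXIPL, or ChREBP, the carbohydrate-responsive partner of MLX in liver and gut, read 6.18, 6.12 and 6.10 against 7.12, 6.48 and 6.54. Its difference was 0.58 ± 0.17 (log2, SE, limma adjusted p = 0.0935), and siChe-1 replicate 1 was the highest array. Without that array the difference was 0.38. The control readings lie below the highest leukocyte marker reading, 6.20 for TYROBP, and above those of the other leukocyte markers. With no detection calls, the size of the difference is uncertain. MLX, named after its value was seen, had a difference of -0.07 (adjusted p = 0.818). Among 15 kinases, ubiquitin ligases and deubiquitinases that act on MYC protein, none passed by limma. An unadjusted p under 0.05 was found for 4, and for 17.7% of all genes. The one with the smallest p was USP36, a nucleolar deubiquitinase that stabilises MYC, at -0.51 ± 0.15 (log2, SE, limma adjusted p = 0.0882). Of the 14 other settings USP36 passed in 3, among them that without siChe-1 replicate 1, where 8.5% of all genes passed.

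Among 16 MYC cofactors none passed by limma and the median difference was -0.03. An unadjusted p under 0.05 was found for 2, and for 17.7% of all genes. WDR5, which anchors MYC to chromatin, came nearest at -0.33 ± 0.11 (log2, SE, limma adjusted p = 0.146), with all 3 siChe-1 arrays (8.27, 8.22 and 8.20) below the control arrays (8.54, 8.52 and 8.64). Among 13 subunits of the SIN3 and histone deacetylase corepressor, which the MXD proteins and MNT recruit, none passed by limma. Of the 13, 4 had an unadjusted p under 0.05, against the same 17.7% of all genes. BRMS1, a SIN3 complex subunit, had the smallest p, at -0.44 ± 0.12 (adjusted p = 0.0835). Their median difference was 0.03. Without siChe-1 replicate 1, 1 cofactor passed, lower, and of the corepressor subunits 1 passed higher and 1 lower. In that setting 8.5% of all genes passed.

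In the MGA Polycomb complex 0 of 13 genes passed by limma and 6 had an unadjusted p under 0.05, against 17.7% of all genes. The median difference was -0.22, beside 0.01 over all genes, and the groups did not overlap for 9 of the 13, 7 lower and 2 higher, where 13.3% and 10.6% of all genes did. E2F6, the E2F repressor of the complex, came nearest. It read 7.41, 7.65 and 7.60 in the arrays labelled control and 6.83, 7.13 and 7.07 in those labelled siChe-1, a difference of -0.54 ± 0.13 (log2, SE, limma adjusted p = 0.0535). Of the 14 other settings E2F6 passed in 5, with adjusted p between 0.00965 and 0.207. L3MBTL2, which reads histone marks for the complex, read 8.08, 8.07 and 8.27 against 7.09, 7.97 and 7.57. Its difference of -0.60 (adjusted p = 0.135) was -0.37 without siChe-1 replicate 1. TFDP2, a dimerisation partner of E2F factors, was among the 2 with higher siChe-1 arrays, at 0.54 (adjusted p = 0.0662). Without siChe-1 replicate 1, 3 genes of the complex passed, 2 higher and 1 lower, where 8.5% of all genes passed. L3MBTL2 and TFDP2 were named after their values were seen, and WDR5, HDAC1 and HDAC2 are also in other lists.

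**Figure D3:**
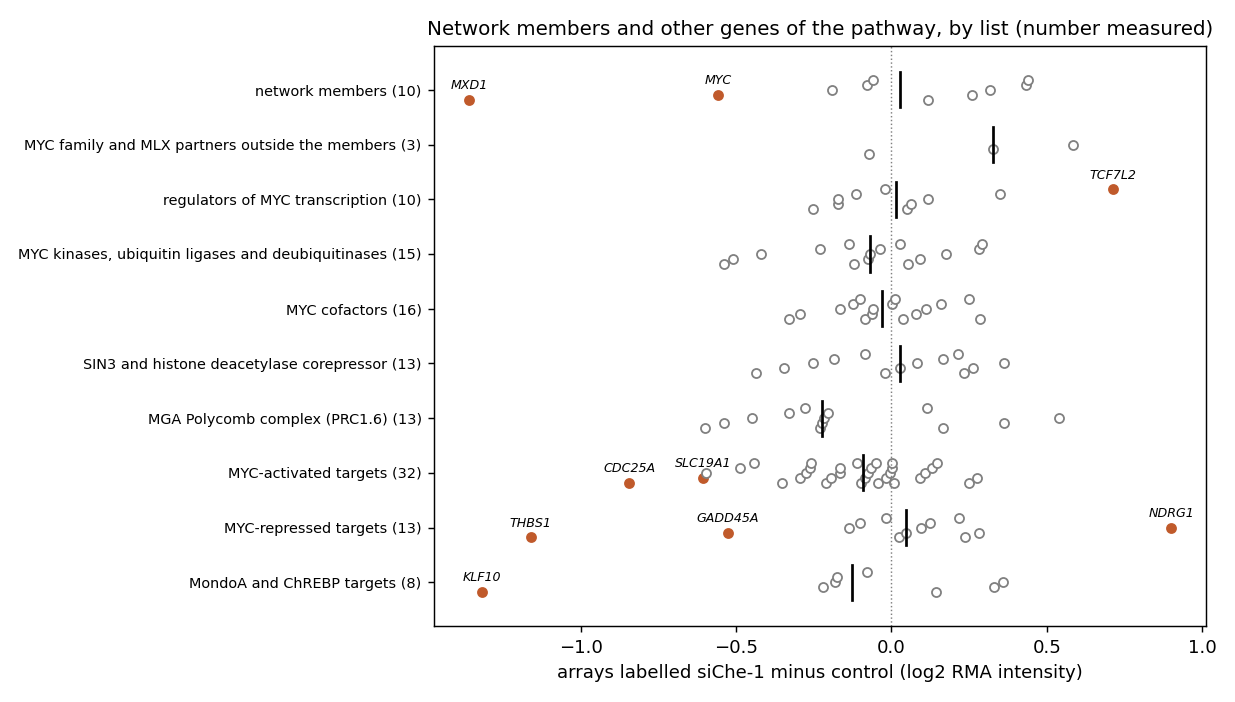
Differences of the 10 network members and of the genes in 9 lists of the wider pathway, arrays labelled siChe-1 minus control in log2 RMA intensity; filled and named points passed at an adjusted p under 0.05, open points did not, and black lines are list medians. Of the listed genes, CDC25A, SLC19A1, THBS1, GADD45A and KLF10 lie to the left and TCF7L2 and NDRG1 to the right.

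The next list held textbook targets that MYC activates. Of 32 measured MYC-activated targets 2 passed, both lower, and 30 did not (6.25% passed, against 3.72% of all genes). The median difference was -0.09, and 23 of the 32 lay below 0, as did 9045 of all 18417 genes. The groups did not overlap for 11, 10 lower and 1 higher, where 13.3% of all genes were lower and 10.6% higher. CDC25A, a phosphatase that drives entry into S phase, read 7.75, 7.32 and 7.41 in the arrays labelled control and 6.73, 6.59 and 6.63 in those labelled siChe-1, with a gap of 0.59 between the groups. It fell by 0.84 ± 0.14 on the log2 scale (SE, limma adjusted p = 0.00866) and kept its call when any 1 array was left out. SLC19A1, the reduced folate carrier, read 8.11, 8.08 and 8.24 against 7.59, 7.66 and 7.36. It fell by 0.61 ± 0.13 (SE, limma adjusted p = 0.0281), a call lost without any single control array or siChe-1 replicate 3 (adjusted p up to 0.126 over all settings). The abundant targets NPM1, LDHA and HSPD1 had differences between -0.01 and 0.00, and ODC1, which begins polyamine synthesis, had 0.28 (adjusted p = 0.258); these 4 were named after their values were seen. CACGTG lay in the windows of 18 of 32 activated targets with a promoter window, or 56.2%, against 8.77% of all genes with a window. Counted by window, it lay in 38.5% of 52 windows, against 7.26% of all 35116. These 32 genes were drawn from the 38 listed, not from the 32 measured. The list holds known targets of a factor that binds this E-box, so the share is not an independent result. SLC19A1 held CACGTG in 1 of its windows, past the annotated start, and not in the others. CDC25A did not hold it.

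Genes that MYC is known to repress went both ways. Of 13 measured, 1 was higher, 2 were lower and 10 did not pass, with a median difference of 0.05. Over all genes 1.19% were higher and 2.52% lower. NDRG1, a stress-responsive growth suppressor, rose by 0.90 ± 0.13 on the log2 scale (SE, limma adjusted p = 0.00349), from 7.73, 7.74 and 7.84 to 8.87, 8.60 and 8.54. THBS1, an inhibitor of angiogenesis, fell by 1.16 ± 0.15 (SE, limma adjusted p = 0.00186), from 7.996, 7.781 and 8.293 to 6.94, 6.91 and 6.74. GADD45A, a DNA damage-response gene, fell by 0.53 ± 0.12 (SE, limma adjusted p = 0.0374), from 8.97, 8.73 and 8.82 to 8.30, 8.33 and 8.31, and kept its call when siChe-1 replicate 1 was left out but lost it when any other array was. The cyclin-dependent kinase inhibitor CDKN1A had a difference of 0.24 (adjusted p = 0.398) and was named after its value was seen.

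Among 8 targets of MLXIP or MLXIPL, 1 passed, lower (12.5%). Over all genes 3.72% passed and 2.52% were lower. KLF10, a TGF-beta-inducible Kruppel-like repressor reported to respond to these factors, read 9.47, 9.38 and 9.61 in the arrays labelled control and 8.20, 8.21 and 8.10 in those labelled siChe-1. The nearest arrays of the groups lay 1.17 apart on the log2 scale, and KLF10 fell by 1.32 ± 0.12 (SE, limma adjusted p = 0.00016). The best known targets, TXNIP and ARRDC4, arrestin-like inhibitors of glucose uptake, had differences of -0.08 (adjusted p = 0.825) and -0.18 (adjusted p = 0.743). TXNIP read between 2.9 and 3.3 on all arrays, not shown to be above background, so its value says little about MLXIP activity. Without siChe-1 replicate 1, where 8.5% of all genes passed, a further gene of this list was higher. It was HBP1, a repressor of cell cycle genes (0.41, limma adjusted p = 0.0406, against 0.33 and 0.173 with all arrays). TXNIP, ARRDC4 and HBP1 were named after their values were seen.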

How the data were processed

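Per the submitters' processing notes, the authors made the deposited log2 intensities with RMA, run in Affymetrix Expression Console (no version stated). They come from 6 single-colour whole-transcript arrays, each from 6 micrograms of total RNA per the labels' protocols. RMA equalises the arrays' distributions, which hides any change in the amount of RNA per cell, and compresses differences of dim genes. The table has no detection calls. Precision is limited by the number of arrays. Of 33297 probe sets, 19460 were paired with 1 symbol. Where a gene had several (769 genes), the one with the highest mean was used.

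The comparison, siChe-1 minus control, used lmFit and eBayes of limma 3.58.1 (R 4.3.3) without covariates or filter, and Benjamini-Hochberg adjustment over 18417 genes; the script was tested on simulated data. Single values were also compared with exact permutation tests. Differences carry moderated SEs. The members and lists were chosen with earlier results of these data known. Listed genes without a probe set of their own symbol were not analysed here. Named genes were the members, AATF, the called genes of a list (or the gene with the smallest p where none passed) and the 5 profiles nearest to MYC. Genes outside this rule are marked as such in the text, except the cell type markers, which were named by their levels after these were seen. There were 0 value columns outside the 6 samples. The alternatives were another quantile normalization, median centring, leaving out the dimmest 40% of genes, averaging probe sets, testing all rows, array weights, a robust prior with an intensity trend, a replicate block and leaving out each array.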

Additional observations from a re-analysis of the deposited data

How the results depend on the processing

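MXD1 kept its direction and its call in all 14 other settings, and MYC kept its direction in all 14 and its call in 8. Testing all rows of the table gave 408 calls in place of 685 over all genes. It gave 1 in place of 2 among the members (MYC at limma adjusted p = 0.116) and 4 in place of 7 among the other pathway genes. More rows share the adjustment there, and the cause of the lower counts was not tested. Array weights gave 2865, 4 (with MXD3 at adjusted p = 0.0149 and MXI1 at 0.0305) and 26, and turned MGA to 0.03; the cause was not tested. Leaving out 1 array gave 272 to 1565 calls over all genes, 1 to 2 among the members and 4 to 15 among the other pathway genes. In those settings MGA ranged from -0.25 to 0.13 and MLXIP from -0.31 to 0.069, changing sign without passing, and AATF from 1.05 to 1.22. The replicate block gave 1145, 2 and 14 calls, and MYC passed with it (adjusted p = 0.0282). The numbers are not shown to pair the samples, since the deviations of same-numbered arrays correlated at 0.23, 0.06 and -0.04 for replicates 1, 2 and 3. Of the calls, 32.1% were higher, against 20.0% after median centring, which moved the median gene by -0.06, 47.1% with array weights and 47.2% without siChe-1 replicate 1. Without the dimmest 40% of genes MYCN had no value. Of 139 member differences recomputed, 127 kept sign and side of the threshold. With no detection calls, low levels such as that of MYCN cannot be told from background.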
